A study of Mus musculus with 2 samples.

Results

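The lysosomal list held 37 genes, fixed by name: 13 proteases, most of them cathepsins, 10 hydrolases of glycans and lipids with their activator proteins, 8 proteins of the lysosomal membrane and of cholesterol transport, the transcription factor gene Tfeb, and 5 genes of the proton pump. Of these, 36 had at least 1 array probe set that the platform annotation assigned to that gene alone, among 18193 genes named in this way. Cd63 had none and was not analysed here. Where several probe sets read a gene, the value is that of the probe set whose intensity, averaged over both arrays, was greatest, called the brightest probe set. The rule itself used no difference between the arrays, but a high value on 1 array can decide which probe set is the brightest. Pairs of intensities below are given with wild type first.

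The tissue was the interdigital region of the hind limb at E13.5, the webbing between the digits, with the dissected parts labelled ID2 and ID3. One sample came from wild-type B6 embryos and the other from embryos homozygous for Hammer toe, a mouse mutation that leaves the digits webbed. The labels give no strain for the Hammer toe embryos, so strain and genotype cannot be told apart. According to the design text, each genotype comprised 15 embryos in 3 sets of 5 littermates. Only 1 array per genotype was at hand, and its relation to the sets is not stated. There were therefore no replicates, no test was possible and no value below carries an error between samples.

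Lysosomes are acidic compartments in which proteases and other hydrolases break down material taken up from outside the cell or delivered by autophagy. A proton pump of the V-ATPase family acidifies them, heavily glycosylated membrane proteins line them, and the transcription factor TFEB can raise the transcription of many lysosomal genes together. In the limb, the tissue between the digits normally regresses by cell death, and macrophages engulf the dead cells and digest them in their lysosomes. Cathepsins can also leave the cell and cleave matrix proteins.

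Lysosomal transcripts were nearly at the same level in Hammer toe and wild-type interdigits. The median log2 ratio of intensity, Hammer toe over wild type, was 0.03 over the 36 genes, and the middle 50% of them lay between -0.06 and 0.16. Over all 11621 measured genes the median was 0.01. Measured here means that at least 1 array exceeded a floor, an intensity of 78.1 set at the median of all values. Lower values were raised to that floor before the ratio was taken. All 36 lysosomal genes were measured, 35 of them above the floor on both arrays. Only Tfeb had an array under the floor.

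Somewhat more lysosomal genes stood above wild type than below it, by small amounts. There were 23 higher and 13 lower, so 63.9% were higher, against 51.7% of all measured genes. Differences under 1.1-fold made up 20 of the 36, or 55.6%, and 55.7% of all measured genes were as close. At 1.5-fold or more, in either direction, there was only Atp6v0a1, or 2.78%, against 3.56% of all measured genes. It also passed 2-fold, a size that 0.37% of all measured genes reached. At a smaller size, a log2 ratio of 0.32, there were 4 lysosomal genes, or 11.1%, against 14.8% of all measured genes: Atp6v0a1, Ctsh and Ctsk higher and Glb1 lower. The shares within 1.1-fold and past 1.5-fold lay near the background, and the share past 2-fold rests on a single gene.

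**Figure D1:**
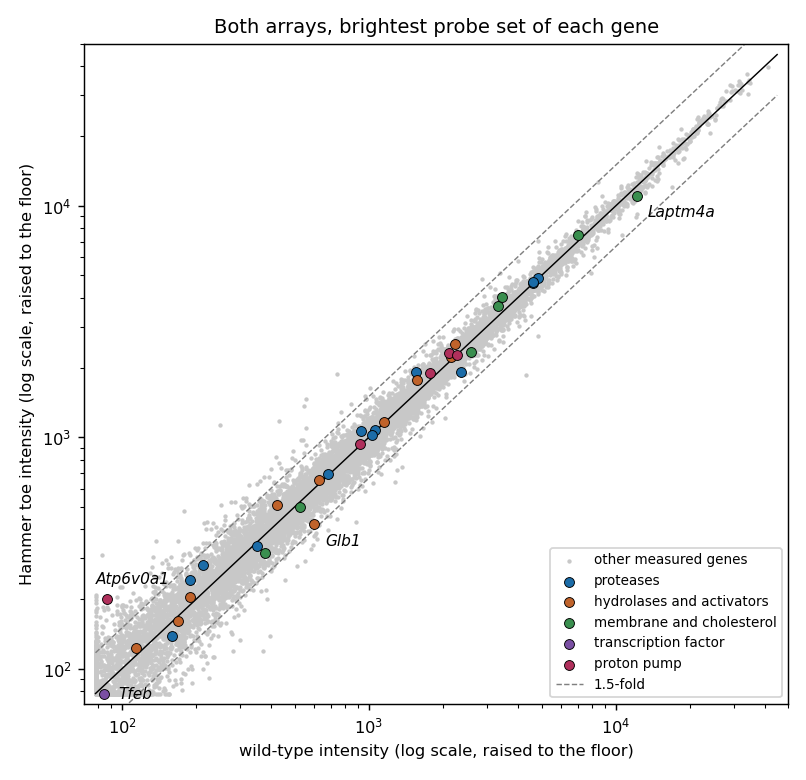
Intensity on the Hammer toe array against the wild-type array for the brightest probe set of each gene, both axes logarithmic, with all measured genes in grey and the 36 lysosomal genes coloured by role. The solid line marks equal intensity and the dashed lines a 1.5-fold difference, which only Atp6v0a1 passed. Tfeb, under the floor of 78.1 in Hammer toe, is drawn at the floor.

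Without replicates, the ratios can be set only against other spreads within these arrays. Across 18 probe sets for spiked hybridisation controls, several of them reading the same transcript, the SD of the log2 ratio was 0.06. Within a gene, probe sets scattered around their mean with an SD of 0.21 over 5134 genes. For the 13 lysosomal genes with several probe sets that exceeded the floor in both genotypes, this SD was 0.20, and 8 of the 13 had probe sets on both sides of 0. Up to an intensity of 200 on the brighter array, 95% of all measured genes lay within 1.60-fold. Between 200 and 1000 that range was 1.45-fold, and above 1000 it was 1.24-fold. Atp6v0a1 was the only lysosomal gene outside the range of its own intensity class. None of these spreads contains the variation between embryos or litters.

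Among the proteases, Ctsb, Ctsl and Ctsz were at nearly equal levels on both arrays and others differed by up to 1.32-fold. Of 13, 8 were higher and 5 lower, with a median log2 ratio of 0.02. None reached 1.5-fold. Cathepsin B, a cysteine protease that cuts both within chains and from their ends, gave 4634 on the wild-type array and 4622 on the Hammer toe array. Cathepsin L (Ctsl), a cysteine endopeptidase, read 4850 and 4883. Cathepsin Z (Ctsz), a carboxypeptidase, read 4629 and 4698. All 3 thus lay within 1.02-fold. The other probe sets of Ctsb and Ctsz differed by more: those of Ctsb above the floor had log2 ratios from 0.09 to 0.29, and the others of Ctsz were at -0.23 and -0.03. The other probe set of Ctsl, from 53.2, under the floor, to 78.7, gave a log2 ratio of at least 0.01.

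A further 4 proteases were within 1.1-fold on their brightest probe sets. Ctsa, a serine carboxypeptidase that also stabilises a sialidase and a galactosidase, read 1058 and 1077. Its other measured probe set, from 63.9, under the floor, to 98.9, gave a log2 ratio of at least 0.34. Lgmn, which cuts after asparagine and processes cathepsins, read 682 and 695. Tpp1, which removes tripeptides from the ends of proteins, read 1032 and 1022, but on the second probe set its log2 ratio was 0.32. Ctso, a less studied cysteine cathepsin, read 352 and 338, a difference of 1.04-fold.

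The proteases furthest above wild type were Ctsh, Ctsk, Ctsd and Ctss. Ctsh, an aminopeptidase, had the largest ratio of the group, from 213 to 281, or 1.32-fold. Its second probe set, of a type (_x_at) that can bind related transcripts, ran the opposite way, from 152 to 118 and a log2 ratio of -0.37, so the gene has no settled direction. Ctsk, the main collagen-degrading protease of osteoclasts, read 188 and 241, or 1.28-fold higher on a single probe set. Ctsd, an aspartic protease, read 1556 and 1906, or 1.23-fold higher, which lies just inside the 1.24-fold range of 95% of genes above 1000. Ctss, a cysteine protease of antigen-presenting cells, read 931 and 1059, or 1.14-fold higher.

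Ctsc and Ctsf stood lower. Ctsc, a dipeptidyl peptidase that activates serine proteases of white blood cells, went from 2355 in wild type to 1913 in Hammer toe. At 1.23-fold lower, it too lay just inside the 1.24-fold range. Its other measured probe set ran the opposite way, from 66.1, under the floor, to 92.5, a log2 ratio of at least 0.24. Ctsf read 160 and 138, or 1.16-fold lower. Genes that encode inhibitors of cysteine cathepsins were near wild type: Cst3 (cystatin C, which is secreted) and Cstb (cystatin B, of the cytosol) were 1.06-fold higher each. Of the 10 inhibitor genes listed, these were the only 2 measured.

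Markers of the cells that carry some of these cathepsins moved as follows. Of 20 macrophage markers 18 were measured, 15 higher and 3 lower, with a median log2 ratio of 0.32. Among all measured genes 51.7% were higher. Their summed intensity was 5520 in wild type and 6557 in Hammer toe. Aif1, Fcgr3, Mrc1 and C1qa stood at log2 ratios of 0.79, 0.63, 0.59 and 0.59, though Aif1 read 82.7 in wild type, close to the floor. The 3 lower markers were Pf4 at -0.28, Cybb at -0.19 and Cd68 at -0.11. The value of Cybb is a bound, as its Hammer toe array was under the floor. Cd68 is itself a lysosomal membrane protein of macrophages. Neither array exceeded the floor for Spi1 and Itgam, and no measured marker of the list had a log2 ratio of 0. A floor at the 75th percentile, 497.6, left 4 macrophage markers, and their median was 0.04. Of these, C1qb and Mrc1 read 367 and 333 in wild type, under that floor. Raising them to it shrinks their ratios, which were 0.49 and 0.59 with the main floor. The other markers left were above that floor on both arrays and ran opposite ways. Csf1r read 1028 and 1218, a log2 ratio of 0.24, and Pf4 read 1047 and 865, a log2 ratio of -0.28. The brightest macrophage markers thus had no shared direction. The part of macrophages in the values of the cathepsins, whether higher, lower or level, was not tested. In whole tissue, more cells of a type cannot be told apart from more RNA per cell.

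Of 10 osteoclast markers only 3 were measured, Acp5, Nfatc1 and Itgb3, and all 3 were lower, with log2 ratios of -0.56, -0.26 and -0.09. Their summed intensity was 1211 in wild type and 989 in Hammer toe. Acp5, the tartrate-resistant phosphatase that defines these cells, went from 115 to 62.4, under the floor, and was thus at least 1.47-fold lower. Calcr, Ocstamp, Dcstamp, Oscar, Mmp9, Tnfrsf11a and Atp6v0d2 were under the floor on both arrays. The part of osteoclasts in the value of Ctsk was not tested.

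**Figure D2:**
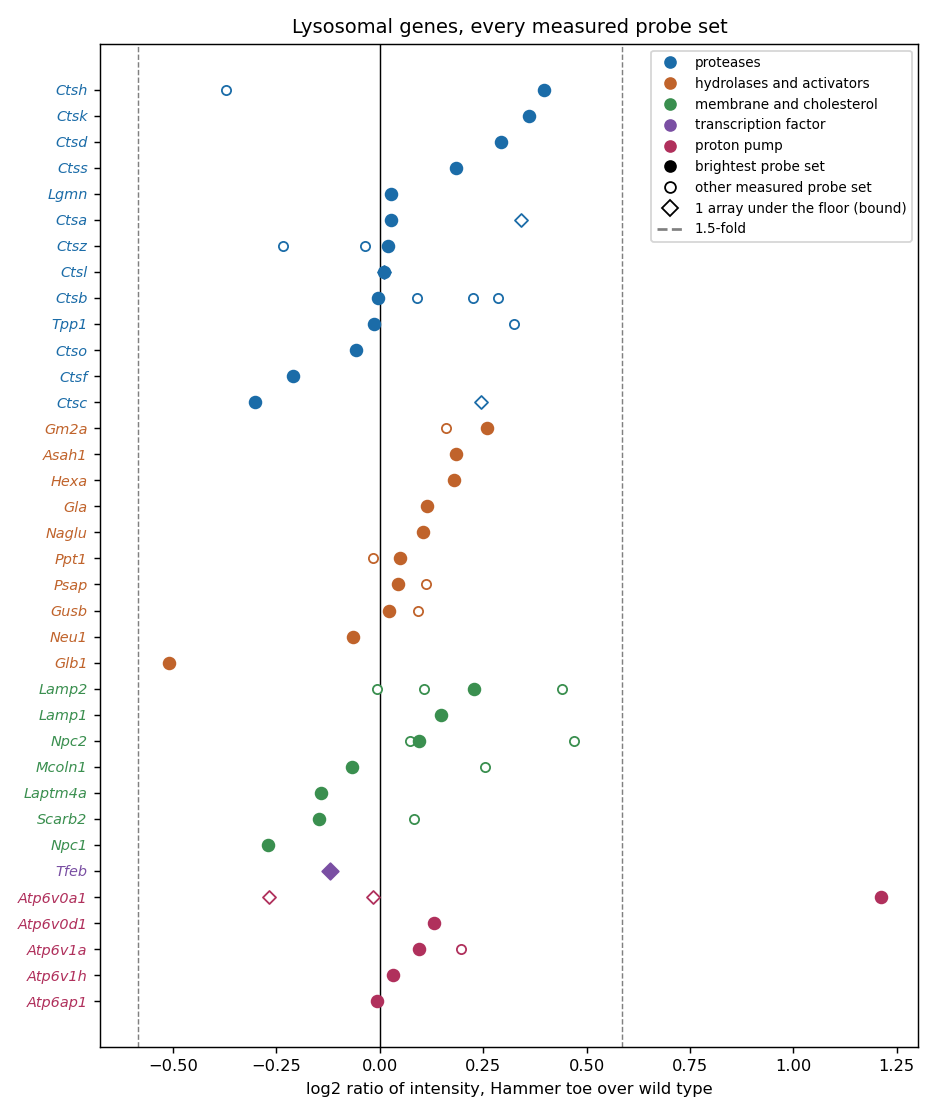
Log2 ratio of intensity, Hammer toe over wild type, for each measured probe set of the 36 lysosomal genes, grouped by role. Filled symbols are the brightest probe set of a gene and open symbols its other measured probe sets, diamonds mark ratios that are bounds, and dashed lines mark 1.5-fold. Most symbols lie close to 0, and the probe sets of some genes, such as Atp6v0a1, Ctsh and Ctsc, fall on both sides of it.

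The hydrolases that degrade glycans and lipids, with their activator proteins, included Glb1, the lysosomal gene furthest below wild type among those above the floor. As a group they were 8 higher and 2 lower of 10, with a median log2 ratio of 0.08. Glb1, the acid beta-galactosidase whose activity is also used as a stain for senescent cells, went from 600.5 in wild type to 422 in Hammer toe. It was 1.42-fold lower, on a single probe set, where 95% of genes between 200 and 1000 lay within 1.45-fold. The products of Neu1, a sialidase, and of Ctsa form a complex with that enzyme. Neu1 read 168 and 160, or 1.05-fold lower, and Ctsa was at 1.02-fold higher, as above.

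The hydrolases and activators furthest above wild type were Gm2a, Asah1 and Hexa. Hexa, a subunit of beta-hexosaminidase, read 1560 and 1767, or 1.13-fold higher. Gm2a, the activator that presents ganglioside to that enzyme, read 426 and 510.0, or 1.20-fold higher, and the second probe set gave 0.16 on the log2 scale. Psap, the precursor of the saposin activators, read 2147 and 2214. Asah1, the acid ceramidase, read 2229 and 2532, or 1.14-fold higher. None of these 4 genes passed the range that holds 95% of genes of similar intensity.

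The remaining 4 hydrolases were within 1.1-fold. Gusb, the beta-glucuronidase, read 1147 and 1165. Gla, the alpha-galactosidase, read 188 and 204, and Naglu, which degrades heparan sulfate, 114 and 122. Ppt1, which removes palmitate from proteins, read 630 and 652 on its brightest probe set, and the second gave a log2 ratio of -0.02.

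Genes of the lysosomal membrane and of cholesterol transport were split, with 3 higher and 4 lower of 7 measured and a median log2 ratio of -0.07. Lamp1 and Lamp2 encode the 2 major glycoproteins of the membrane. Lamp1 read 3330 and 3691, or 1.11-fold higher. Lamp2, whose splice forms serve different routes of autophagy, read 3454 and 4042, or 1.17-fold higher, and its other 3 probe sets had log2 ratios of 0.44, 0.11 and -0.01. Which splice forms each probe set reads was not determined here.

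Scarb2, Laptm4a, Mcoln1 and Npc1 were lower by small amounts. Laptm4a, a membrane protein of late endosomes and lysosomes, read 12188 and 11050, a log2 ratio of -0.14. Scarb2, the receptor that carries beta-glucocerebrosidase to the lysosome, read 2580 and 2330, or 1.11-fold lower. On its second probe set the log2 ratio was 0.08. Mcoln1, a calcium channel of the lysosomal membrane, read 523 and 499, with log2 ratios of -0.07 and 0.25 on its measured probe sets.

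Npc1, the membrane protein that carries cholesterol out of the lysosome, read 380.2 and 315, or 1.21-fold lower. Npc2, the soluble protein that hands cholesterol to it, read 7022 and 7506, or 1.07-fold higher. The other measured probe sets of Npc2 had log2 ratios of 0.07 and 0.47, the last from a dim probe set at 142 and 196.

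The proton pump held the single large ratio of the whole list. Atp6v0a1, an isoform of the large membrane subunit through which protons pass, stood at 86.5 in wild type and 201 in Hammer toe, or 2.32-fold higher, on its brightest probe set. It has 4 probe sets, of which 3 were measured. The other measured pair read 94.0 and 55.6, and 79.0 and 45.4. Both were under the floor in Hammer toe and lay on the opposite side, with bounds at log2 ratios of -0.27 and -0.02. The remaining probe set read 66.5 and 41.2, under the floor on both arrays, and has no direction. The mean over the 3 measured probe sets was 0.31, under 1.5-fold, so the call rests on 1 probe set near the floor. That probe set was the brightest only through its Hammer toe value, as in wild type another read higher, at 94.0.

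**Figure D3:**
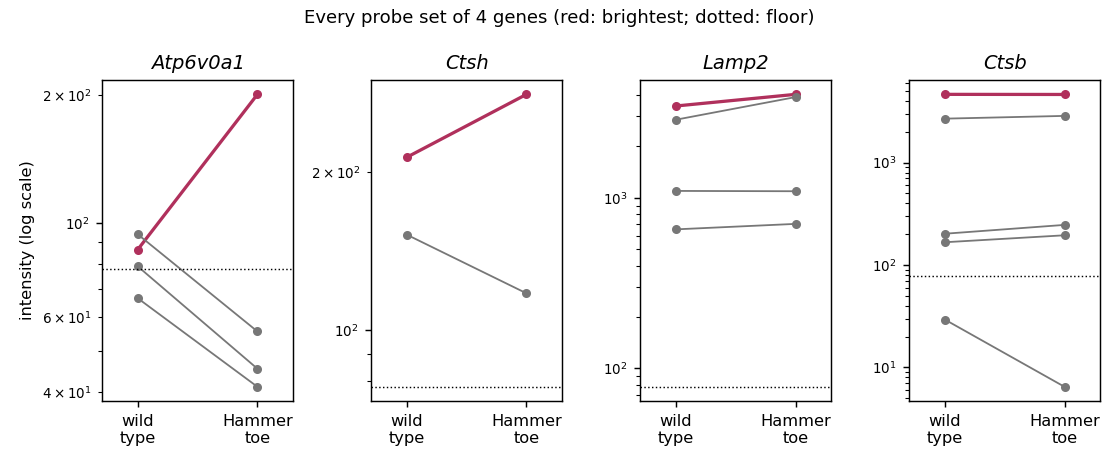
Intensity (logarithmic axis) of every probe set of Atp6v0a1, Ctsh, Lamp2 and Ctsb on the wild-type and the Hammer toe array, with the brightest probe set in red and the floor of 78.1 dotted. For Atp6v0a1 only the brightest probe set was above the floor on both arrays, and for Ctsh the pair of probe sets ran in opposite directions.

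The other 4 pump genes of the list were within 1.1-fold. Atp6v0d1, a subunit that joins the membrane part of the pump to its stalk, read 2104 and 2307, a log2 ratio of 0.13. Atp6v1a, the catalytic subunit that splits ATP, read 1773 and 1894, and the second probe set gave a log2 ratio of 0.20. Atp6v1h, a regulatory subunit, read 917 and 938, and Atp6ap1, an accessory protein of the pump, 2276 and 2266. Of 13 further pump subunits that were measured, 6 were higher and 7 lower, with a median log2 ratio of -0.01. None reached 1.5-fold, against 3.56% of all measured genes. The furthest from wild type was Atp6v0e2, a small membrane subunit, at -0.52. The measured isoforms of the same large subunit as Atp6v0a1 did not stand higher: Atp6v0a2 was at -0.31 and Tcirg1, the isoform of osteoclasts, at -0.05. Atp6v0a4, a further isoform, read 22.3 and 7.1, under the floor on both arrays, and has no direction. These isoforms were picked after their values were seen.

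Tfeb, which encodes the transcription factor, was measured only barely. Its single probe set went from 84.8 in wild type to 16.1 in Hammer toe and was therefore at least 1.09-fold lower. Its relatives Tfe3 and Mitf, which bind the same sites, read 412 and 569, and 137 and 193. Their log2 ratios were 0.47 and 0.49, on 1 measured probe set each, both within the range of 95% of genes of their intensity. The fourth member of the family, Tfec, was under the floor on both arrays.

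Promoter sequences are shown because TFEB and its relatives bind a short palindromic word, CACGTG, often in the longer form TCACGTGA. Both words read the same on either strand, and each longer word contains the shorter one. RefSeq promoters (build GRCm38.p6, 250 bases before to 50 after a start site) were matched by symbol for 31 of the 36 genes, all but Asah1, Atp6v1h, Ctsb, Ctsh and Npc1. The shorter word was present in 12 of the 31, or 38.7%, against 8.09% of 27025 genes with a promoter entry and 11.8% of the 9419 measured ones. The longer word was present in 6, or 19.4%, against 1.12% and 2.26%. It was also present in 26.7% of 15 other lysosomal membrane proteins and 28.6% of 7 genes that sort enzymes to lysosomes. In 19 other lysosomal enzymes, 14 other pump subunits and 13 autophagy genes the shares were 5.26%, 7.14% and 0%. A match is a description of the sequence and does not show that a factor binds there.

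The stretches below carry the words in capitals, written 5′ to 3′ on the strand of the gene. The first 6 are the genes with the longer word, followed by Lamp1, which has 4 copies of the shorter word in a row, and Glb1, the hydrolase furthest below wild type. For Ctsa the stretch comes from 1 of its 2 start sites. A further copy of the longer word just after that start is not shown. For Ctsd a copy of the shorter word further upstream is not shown either.
Ctsd (chr7:142387903-142387942, minus strand): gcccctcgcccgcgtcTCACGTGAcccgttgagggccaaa
Mcoln1 (chr8:3500432-3500496, plus strand): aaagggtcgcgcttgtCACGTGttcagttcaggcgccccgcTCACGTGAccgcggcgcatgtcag
Gla (chrX:134601177-134601249, minus strand): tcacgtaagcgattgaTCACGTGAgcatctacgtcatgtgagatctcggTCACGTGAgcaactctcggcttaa
Atp6v1a (chr16:44139368-44139407, minus strand): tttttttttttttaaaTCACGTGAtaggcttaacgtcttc
Ctsa (chr2:164833744-164833772, plus strand): aacaatgagcaaactgTCACGTGAtgcag
Atp6v0d1 (chr8:105566053-105566076, minus strand, across the start): tactgcggTCACGTGAgacgcggt
Lamp1 (chr8:13159084-13159160, plus strand): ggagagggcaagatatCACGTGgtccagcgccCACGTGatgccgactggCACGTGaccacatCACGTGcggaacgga
Glb1 (chr9:114401014-114401051, plus strand): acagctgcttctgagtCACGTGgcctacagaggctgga

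The promoter of Atp6v0a1, the gene with the largest ratio, held neither word in its 300-base entry. Its 250 bases before the start, at chr11:101010148-101010397 on the plus strand, had 43.6% G and C.
Atp6v0a1: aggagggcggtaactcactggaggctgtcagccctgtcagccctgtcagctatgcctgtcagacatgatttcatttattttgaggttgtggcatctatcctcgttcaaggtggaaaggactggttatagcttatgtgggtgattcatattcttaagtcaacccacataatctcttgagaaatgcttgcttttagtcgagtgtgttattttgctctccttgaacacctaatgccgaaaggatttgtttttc

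The 6 genes with the longer word had a median log2 ratio of 0.11, from -0.07 for Mcoln1 to 0.29 for Ctsd, and 5 of the 6 were higher. The 6 with the shorter word only (Lamp1, Glb1, Naglu, Lgmn, Ctsl and Ctsf) had a median of 0.02, from -0.51 to 0.15. Of these 6, 4 were higher. The 19 with neither had a median of 0.02, from -0.30 to 1.21, and 11 of the 19 were higher. Among all measured genes with a promoter entry, the median was 0.01 for the 1112 with the shorter word and 0.00 for the 213 with the longer. Higher genes numbered 573 of those 1112 and 105 of those 213.

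**Figure D4:**
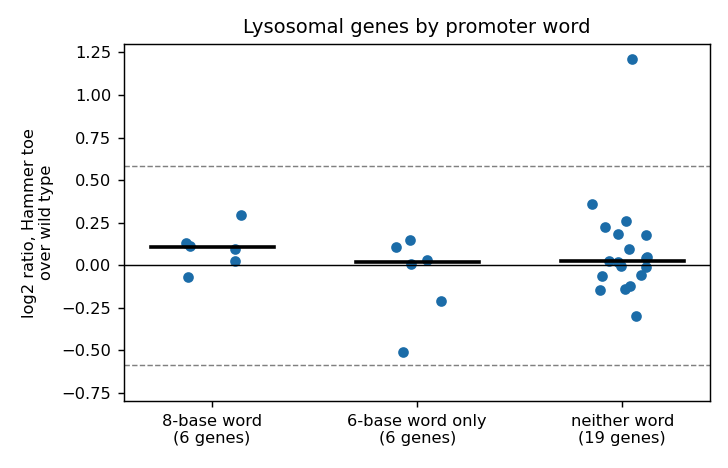
Log2 ratio, Hammer toe over wild type, of the 31 lysosomal genes with a promoter entry, split by whether it holds the 8-base word, only the 6-base word, or neither. Points are genes and bars are medians, at 0.11, 0.02 and 0.02, and the dashed lines mark 1.5-fold. The point above 1.5-fold is Atp6v0a1.

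Of 24 other lysosomal enzymes measured, 15 were higher and 9 lower, none by 1.5-fold, with a median log2 ratio of 0.08. Among all measured genes 51.7% were higher and 3.56% reached 1.5-fold. The furthest was Plbd2, a phospholipase-like protein, at -0.40, and its second probe set stood at 0.13. Of 16 other lysosomal membrane proteins, 6 were higher and 10 lower, none by 1.5-fold, with a median of -0.07. The furthest was Clcn7, a chloride and proton exchanger, which read 411 and 278, or 1.48-fold lower, though its second measured probe set was at 0.14.

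Genes that sort enzymes to lysosomes, control the compartment or carry out autophagy also held no member at 1.5-fold. As only 3.56% of all measured genes reached that size, lists this short can hold none without differing from the background. The 9 sorting genes had a median of -0.01, and M6pr, a receptor for the mannose 6-phosphate tag of lysosomal enzymes, was furthest at 0.37, and its second probe set stood at -0.06. The 16 measured genes of lysosome and mTORC1 control had a median of 0.02, with Mitf furthest at 0.49. For the 18 autophagy genes it was 0.05, and the furthest was Uvrag at -0.34. Sqstm1, the autophagy receptor p62, read 1162 and 1178. It is itself degraded in autophagy, and was picked after its value was seen.

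**Figure D5:**
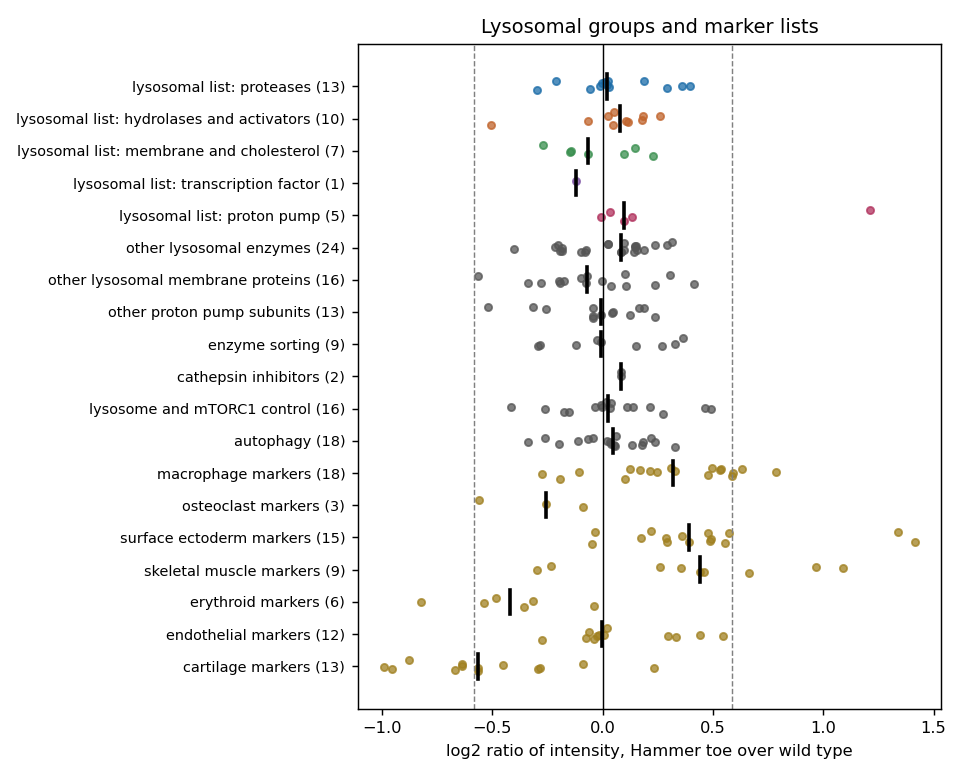
Log2 ratio, Hammer toe over wild type, of measured genes in the lysosomal list by role (coloured), in related lists (grey) and in marker lists of other cell types (ochre), with the number measured in parentheses. Points are genes, with bounds drawn at their bound, black bars are medians and dashed lines mark 1.5-fold. The lysosomal and related lists centre near 0, while cartilage and erythroid markers lie lower and ectoderm, muscle and macrophage markers higher.

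Other features of the samples also differed between the arrays. For comparison, 51.7% of all measured genes were higher and 3.56% reached 1.5-fold in either direction. Surface ectoderm markers were higher in 13 of 15 (median log2 ratio 0.39, summed intensity 14079 and 18173), with Pkp1 and Krt19, both under the floor in wild type, at log2 ratios of at least 1.41 and 1.34. Skeletal muscle markers were higher in 7 of 9 measured (0.44, 1434 and 2112), with Myh3, Actc1 and Tnnc1 furthest at 1.09, 0.97 and 0.66. Myh3 read 84.2 in wild type, close to the floor. All 6 measured erythroid markers were lower (-0.42, 57914 and 49710), with Hbb-bh1 at -0.82. Cartilage markers were lower in 12 of 13 measured (-0.57, 16645 and 10831), and the 6 past 1.5-fold were Col9a3, Sox5, Col9a2, Col2a1, Sox9 and Col9a1, at -0.99 to -0.64. Endothelial markers had a median of 0.00, with Esam furthest at 0.55. No measured marker of these lists had a log2 ratio of 0. All 12 markers of limb mesenchyme and interdigit were measured, and 9 of them were lower, with a median of -0.15. The members of that list past 1.5-fold were both higher, Tbx3 at 0.80 and Tbx2 at 0.70. The part of these cell types in the lysosomal values was not tested.

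Lamp2, Gla and Atp6ap1 lie on the X chromosome, and the sex of the embryos was not given. Xist, expressed from the inactive X, had a log2 ratio of -0.44, and the Y-linked genes Eif2s3y, Uty and Kdm5d had ratios of 0.77, 0.65 and 0.48. The 3 X-linked lysosomal genes stood at 0.23, 0.12 and -0.01, and 395 measured X-linked genes had a median of 0.00. The part of embryo sex in the 3 values was not tested.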

How the data were processed

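RNA was purified on columns and 250 ng of it gave the biotinylated cRNA hybridised to Affymetrix arrays, per the labels' protocols. The deposited intensity values, on a linear scale, come from MAS5, which the authors ran in Affymetrix Expression Console. The tool names are from the submitters' processing notes, and the version is not given in the sources used here. Both arrays had a mean of 500.003 after 2% was trimmed at each end, and such scaling hides any shift shared by most transcripts. The number of arrays limits the precision.

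Of 45101 probe sets, 64 controls were left out. The platform annotation, updated through gene IDs to RefSeq symbols, gave 1 gene to 34945, several to 932 and none to 9160. For 204 the annotation's symbol was kept. The floor was the median of all non-control values. Log2 ratios were computed with pandas 2.3.3 in Python 3.11.15. Intensities were compared between the arrays within a probe set, and between probe sets only to choose the one read for a gene and to form intensity classes. The code was checked on a copy of the wild-type array, with known fold changes put into genes well above the floor. Genes near the floor were not covered by this check.

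The genes, lists and tests were chosen with earlier results of these data known. Values were given for all lysosomal genes. From the other lists, up to 6 genes past 1.5-fold, or failing that the furthest gene, were named, with a few others as examples, some picked after their values were seen. Alternatives covered scaling, floor, pseudocount, probe set choice and size.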

Additional observations from a re-analysis of the deposited data

How the results depend on the processing

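The median log2 ratio of the lysosomal genes stayed close to 0 under all 9 alternatives of scaling, floor, pseudocount and probe set choice, from 0.02 to 0.09, the last with the mean over measured probe sets. Leaving Atp6v0a1 aside, chosen after seeing the data, gave 0.03. The count of 1 gene at 1.5-fold or more was 1 under median centring, quantile normalization, lowess correction and without _x_at, _s_at and _a_at probe sets. It became 2 with no floor, with the 25th percentile as floor and with a pseudocount, where Tfeb joined at log2 ratios of -2.40, -2.10 and -0.79. It became 0 when the 75th percentile served as floor, where 26 of the 36 genes remained and Atp6v0a1 was dropped, with the mean over probe sets, and where all measured probe sets had to pass. At a log2 ratio of 0.32 or more in either direction it was 4, or 11.1%, against 14.8% of all measured genes. With no floor, 25.6% of all genes passed 1.5-fold, and 14.4% did when the 25th percentile served as floor. The share was 1.85% with the pseudocount, 0.65% with the 75th percentile as floor and 3.04% with the mean over probe sets. Under median centring and quantile normalization it was 3.49%, and under lowess correction 3.45%. Of the 36 genes, 32 kept their sign in all alternatives run, and Ctsb, Ctsz, Tpp1 and Mcoln1 did not. No paired analysis was possible because each genotype had 1 array. Dim signal limits Tfeb and Atp6v0a1 most.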
